A study of Mus musculus with 2 samples.

Results

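Immediate early genes are the genes that cells switch on within minutes of a growth factor, a stress or handling, with no need for new protein synthesis. The 10 described here were Fos, Fosb, Jun, Junb, Atf3, Egr1, Klf4, Ier2, Ier3 and Dusp1, chosen by name. They were read by every probe set that the platform annotation gives to exactly 1 symbol, which came to 12 probe sets for 10 of the 18193 genes on the array. Fos, Fosb, Jun, Junb and Atf3 encode leucine zipper transcription factors whose pairs make up AP-1 and related complexes, Egr1 and Klf4 encode zinc finger transcription factors, Ier2 and Ier3 encode small regulatory proteins, and Dusp1 encodes a phosphatase that switches the MAP kinases off again. In the early mouse embryo, FGF signalling through the ERK kinase is a known inducer of several of them, and dissection and cell dissociation are known to induce many of them.

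Whole mouse embryos of 8.5 days post coitum (dpc) were profiled. One array held embryos with maternal uniparental disomy of the whole of chromosome 18 (matUPD18), which have both copies of that chromosome from the mother. The other array held embryos with the paternal disomy (patUPD18). With 1 array per genotype there were no replicates and no test of any difference was possible. The number of embryos behind each array, 1 or more, is not stated in the labels. Values are MAS5 signal intensities, which the authors' software had scaled to the same trimmed mean on both arrays (500.003 for matUPD18 and 500.004 for patUPD18). In RNA of a whole embryo, fewer cells of a type and less RNA per cell cannot be told apart.

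Few facts of the arrays as a whole bear on these genes. Impact, the paternally expressed imprinted gene of the disomic chromosome, read 328.4 in matUPD18 and 2466 in patUPD18, the direction its imprint gives. The lists of embryonic tissue markers gave signal on both arrays, though not by every gene. Nkx2-5 and Tbx6 were below the limit for measurable genes on both arrays. Msgn1, at 66.8 in matUPD18, lay under the 40th percentile of that array. Over 6 genes each, the summed signals were 9601 in matUPD18 and 8737 in patUPD18 for neural tube, 34099 in matUPD18 and 35698 in patUPD18 for cardiac muscle, and 2843 in matUPD18 and 3221 in patUPD18 for somites and presomitic mesoderm. Markers of yolk sac and visceral endoderm summed to 37676 in matUPD18 and 6433 in patUPD18 over 18 genes. Of the 17 measurable ones, 13 were at least 2-fold higher in matUPD18, as were 2.70% of all measurable genes. Of the 13, Afp, Ttr and Rbp4 reached the limit for measurable genes given below on both arrays. The others reached it on the matUPD18 array only, so their selection favoured that direction. Markers of primitive red cells summed to 46917 in matUPD18 and 72125 in patUPD18 over 13 genes. Of the 10 measurable ones, 6 were at least 2-fold higher in patUPD18, as were 1.78% of all measurable genes. Of the 6, Gata1 reached the limit on the patUPD18 array only and the others on both arrays. No marker of either list was at 0 on either array, which does not show presence. In patUPD18, yolk sac markers such as Apoa4 at 29.7 and Apom at 36.7 lay under the array's 40th percentile of 82.5. The red cell marker Epb42, at 53.1 in matUPD18 and 66.6 in patUPD18, lay under the 40th percentile of both arrays. The part of these cell types in the values below was not tested.

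The promoters of the 4 members shown here let the sequence be set beside the values. They are Ier3, the member with the largest ratio, and Fos, Atf3 and Dusp1, the 3 members whose promoter held TGACGT. Those letters are the core of the cyclic AMP response element that CREB and ATF proteins bind. The 250 bases before the transcription start are given, on the strand of the gene, from RefSeq (GRCm38.p6). They lie at chr17:35821463-35821712 on the plus strand for Ier3, chr12:85473640-85473889 on the plus strand for Fos, chr1:191183334-191183583 on the minus strand for Atf3 and chr17:26508473-26508722 on the minus strand for Dusp1. Capitals mark them and, on either strand, the TATA box letters TATAA and a site of the NF-κB type.
Ier3: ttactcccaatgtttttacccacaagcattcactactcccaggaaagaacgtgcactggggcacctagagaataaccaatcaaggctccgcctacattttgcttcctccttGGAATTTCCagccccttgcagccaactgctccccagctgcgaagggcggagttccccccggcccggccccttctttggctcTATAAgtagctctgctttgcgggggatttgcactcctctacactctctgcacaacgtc
Fos: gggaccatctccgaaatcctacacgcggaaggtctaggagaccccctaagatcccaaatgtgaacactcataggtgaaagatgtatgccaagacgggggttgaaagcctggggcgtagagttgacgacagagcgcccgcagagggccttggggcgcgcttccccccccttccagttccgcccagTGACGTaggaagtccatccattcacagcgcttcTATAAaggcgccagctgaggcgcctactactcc
Atf3: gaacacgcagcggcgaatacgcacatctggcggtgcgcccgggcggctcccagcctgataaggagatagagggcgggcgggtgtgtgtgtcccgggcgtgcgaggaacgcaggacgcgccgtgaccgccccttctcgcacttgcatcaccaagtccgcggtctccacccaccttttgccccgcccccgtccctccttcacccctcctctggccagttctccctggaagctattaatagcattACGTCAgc
Dusp1: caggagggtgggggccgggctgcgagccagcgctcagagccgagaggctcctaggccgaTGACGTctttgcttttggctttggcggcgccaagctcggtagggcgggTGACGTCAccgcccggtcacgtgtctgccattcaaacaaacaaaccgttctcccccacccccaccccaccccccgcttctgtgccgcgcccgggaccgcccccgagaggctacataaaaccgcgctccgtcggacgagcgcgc

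In these windows TGACGT began 66 bases before the start in Fos and 8 bases before it in Atf3, where it lies on the opposite strand. In Dusp1 it began 191 bases before the start and again 143 bases before it, the second within the palindrome TGACGTCA, which matches on both strands. It was present in 3 of the 8 members in the promoter table and in 6.47% of the table's 32851 promoters over the same length. GGAATTTCC, of the type bound by NF-κB, began 139 bases before the start of Ier3 and was present in 0.286% of promoters. TATAA was found in Fos, Ier3 and Klf4 and in 22.8% of promoters. The AP-1 site TGANTCA and the CArG box, the binding site of serum response factor, were found in none of the 8 windows, against 6.75% and 1.47% of promoters, which says nothing of sites farther from the start. The members with TGACGT did not share a ratio. The log2 ratio of matUPD18 over patUPD18 was 0.31 for Dusp1, 0.01 for Atf3 and -0.32 for Fos, the last of which was 0.25 when the arrays were scaled to the hybridisation controls.

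Across the genotypes the immediate early genes did not differ in one direction. Egr1, Ier2 and Dusp1 read higher in matUPD18, Ier3, Jun and Fos read higher in patUPD18 under the deposited scaling, and Atf3 read almost the same on both arrays. Ier3, a gene of cell survival control, was the only one at least 2-fold apart, at 2.38-fold higher in patUPD18. A gene was called measurable where its higher signal reached the 60th percentile of its array, 190.1 for matUPD18 and 184.9 for patUPD18. By that rule 7 of the 10 members were measurable, while Fosb, Junb and Klf4 were too dim on both arrays. Signals below the 40th percentile (84.2 in matUPD18 and 82.5 in patUPD18) were raised to it before any ratio. Ier3 and Fos reached the limit on the patUPD18 array only, so their selection favoured that direction, and the other 5 measurable members reached it on both arrays.

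**Figure D1:**
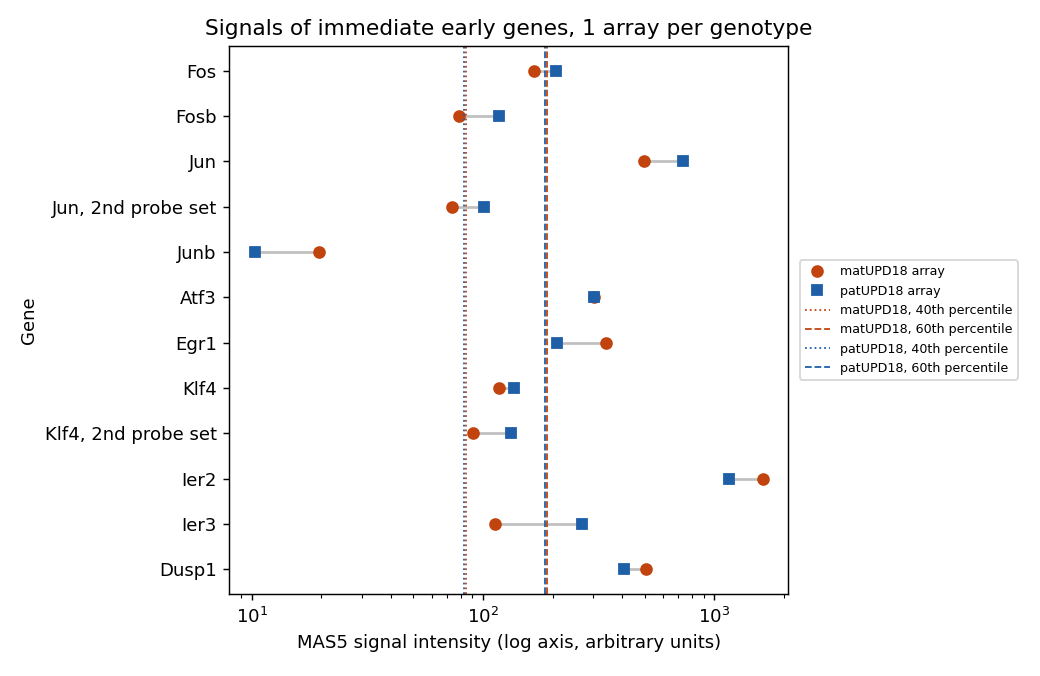
MAS5 signal intensity (log axis) of each of the 12 probe sets on the matUPD18 array (circles) and the patUPD18 array (squares), with the 40th percentile (dotted) and the 60th percentile (dashed) of each array. Ier3 shows the widest gap among measurable genes, 112.4 in matUPD18 against 267.0 in patUPD18, the Atf3 symbols coincide, and Junb lies far below both lines. Positions of different genes cannot be compared, since each probe set binds with its own strength.

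Among the AP-1 genes, Jun, the founding member of the Jun family and a partner of Fos, had signals of 498.3 in matUPD18 and 733.3 in patUPD18 by its brightest probe set. That is 1.47-fold higher in patUPD18, although the log2 ratio of -0.56 was 0.01 after scaling to the hybridisation controls. A second probe set for Jun, below the limit on both arrays, read 73.2 in matUPD18 and 101.1 in patUPD18, the same direction by the deposited values. Fos, the gene most often used as a marker of recent stimulation, read 166.8 in matUPD18 and 207.8 in patUPD18, 1.25-fold higher in patUPD18. Both of its signals lay near the limit, and scaling to the controls turned its direction. Its close relative Fosb read 78.4 in matUPD18 and 117.2 in patUPD18, the first of which lay under the floor, and it was not measurable. Junb, which often opposes Jun in other cells, read 19.6 in matUPD18 and 10.3 in patUPD18, both under the floor, so no ratio can be given. The RiboAmp amplification used here favours the 3' end of a transcript, so a probe set lying far upstream can read low. Where the Junb probe set lies was not used here.

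Atf3, a stress-induced relative that pairs with Jun proteins, had the closest values of the measurable members. It read 302.9 in matUPD18 and 301.5 in patUPD18, a log2 ratio of 0.01. Its size of ratio ranked 514th among the 525 measurable genes of like mean signal, so nearly all such genes differed more.

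The zinc finger factors did not point one way. Egr1, whose protein binds GC-rich sites in many growth-response genes, read 340.8 in matUPD18 and 209.9 in patUPD18, which is 1.62-fold higher in matUPD18 (log2 ratio 0.70). Egr1 is the only member on chromosome 18, the disomic chromosome. Of the 270 measurable genes there, 23 had a higher log2 ratio than Egr1, and the chromosome's median was 0.04 with quartiles of -0.23 and 0.36. Egr1 therefore lay in the upper part of its chromosome without standing at its edge. Klf4, one of the factors used to reprogram cells to pluripotency, was below the limit by both of its probe sets. They read 116.8 and 90.8 in matUPD18 and, in the same order, 136.3 and 132.5 in patUPD18. Both probe sets were thus lower in matUPD18 by the deposited values, at levels where ratios spread widely.

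Of the genes named for the early response itself, Ier2 and Ier3 read in opposite directions. Ier2, a nuclear protein gene, had signals of 1619 in matUPD18 and 1165 in patUPD18, 1.39-fold higher in matUPD18 (log2 ratio 0.48). Ier3, also called IEX-1, read 112.4 in matUPD18 and 267.0 in patUPD18 (log2 ratio -1.25). It is read by 1 probe set, so no other reading of it was at hand. On chromosome 17, which also carries Ier3, Dusp1 read 505.4 in matUPD18 and 406.6 in patUPD18, 1.24-fold higher in matUPD18 (log2 ratio 0.31). Dusp1 removes the activating phosphates from p38, JNK and ERK and is itself induced by them.

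How large these ratios are can be judged only against other genes of the same pair of arrays. Measurable probe sets of the same gene disagreed with a pooled standard deviation of 0.44 on the log2 ratio (10206 probe sets of 4003 genes). This spread does not measure variation between embryos of one genotype, and whether it is purely technical was not tested. It was 0.51 among dimmer probe sets and 0.36 among brighter ones. The ratios of Ier3, Egr1, Jun and Ier2 exceeded the pooled 0.44 in size, 4 of 7 members, as did 30.8% of all measurable genes. Ier3 ranked 21st in size among 524 genes of like mean signal, whose central 95% ran from -1.17 to 1.07, so it lay just outside that range. Egr1 ranked 66th of 524 in its own group (central 95% from -0.85 to 0.96), Jun 107th of 525, Ier2 136th of 524, Dusp1 199th of 524 and Fos 275th of 524. All of these lay inside the central 95% of genes of like signal. Over all 10484 measurable genes Ier3 ranked 239th in size.

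**Figure D2:**
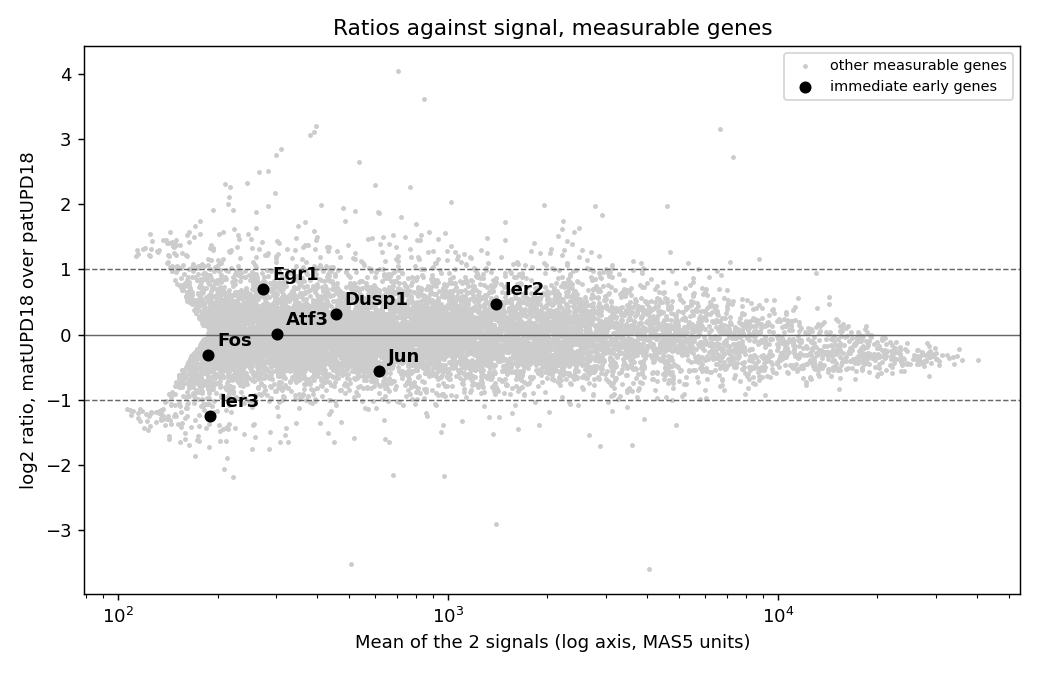
Log2 ratio of matUPD18 over patUPD18 against the mean of the 2 signals (log axis) for all measurable genes (grey), with the 7 measurable immediate early genes in black; dashed lines mark 2-fold. Ier3 lies at -1.25 among the dimmer genes, where grey points spread most, and the other 6 lie between -0.56 and 0.70.

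The share of members past 2-fold was small in number as well. Of the 7 measurable members, 1 was at least 2-fold higher in patUPD18, where 1.78% of all measurable genes were, and 0 were at least 2-fold higher in matUPD18, where 2.70% were. A single gene out of 7 cannot be read as a raised share. By any size of difference, 4 of 7 members read higher in matUPD18, against 46.1% of all measurable genes, and 3 of 7 read higher in patUPD18, against 53.9%. The median log2 ratio of the measurable members was 0.01, beside -0.04 for all measurable genes. The members were nevertheless spread out, with 3 below the lower quartile of all genes (-0.31), 3 above the upper quartile (0.26) and only Atf3 between them. With all 10 members and no limit on dim genes the median was -0.11, and with the 5 members that reached the limit on both arrays it was 0.31.

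The direction of the smaller ratios depended on how the arrays were brought to one scale. The 18 probe sets for bacterial and phage transcripts that are added in known amount at hybridisation all read lower on the matUPD18 array, with a median log2 ratio of -0.56 (range -0.88 to -0.41). Scaling to them moved the median of all measurable genes by 0.57, to 0.52. Fos then read 0.25, Jun 0.01, Atf3 0.57 and Dusp1 0.88, while Egr1 at 1.26 and Ier2 at 1.04 passed 2-fold and Ier3 at -0.68 did not. Median centring and control scaling add about the same amount to every log2 ratio, so they cannot change the members' order or their distance from the median of all measurable genes. Quantile and loess scaling can, and moved that distance little. Relative to that median, over the 5 scalings, Ier3 ran from -1.25 to -1.20, Jun from -0.55 to -0.51, Fos from -0.31 to -0.27, Dusp1 from 0.32 to 0.36, Ier2 from 0.50 to 0.52 and Egr1 from 0.70 to 0.74. Fos and Jun changed sides of 0 only through the shift of control scaling, and Atf3, at almost 0, changed sides under quantile and loess scaling.

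**Figure D3:**
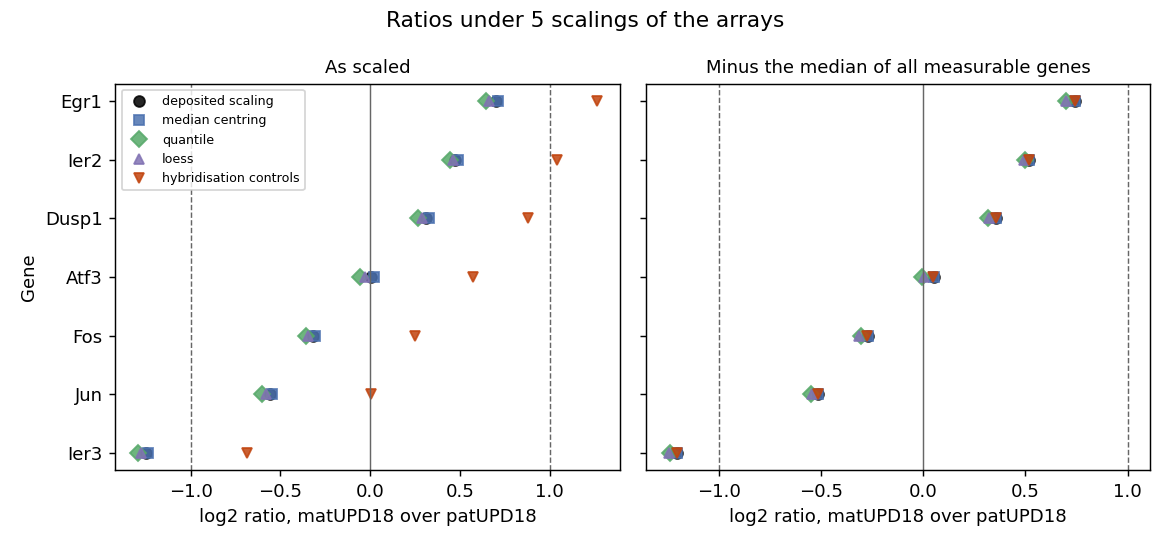
Log2 ratio of matUPD18 over patUPD18 for the 7 measurable immediate early genes under 5 scalings of the arrays, as scaled (left) and minus the median of all measurable genes under the same scaling (right); dashed lines mark 2-fold. On the left, scaling to the hybridisation controls moves each gene to the right, Fos from -0.32 to 0.25 and Egr1 from 0.70 to 1.26, while on the right the symbols of each gene nearly coincide.

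Other immediate early genes also read in both directions. Of 40 other such genes on the array, 26 were measurable, with a median log2 ratio of -0.20 (-0.16 relative to all measurable genes). Under the deposited scaling 9 read higher in matUPD18 and 17 in patUPD18, whereas 20 read higher in matUPD18 after scaling to the controls. Zfp36l2, which encodes a protein that promotes decay of messenger RNAs, read 996.1 in matUPD18 and 394.1 in patUPD18, 2.53-fold higher in matUPD18. Btg2, an antiproliferative gene, read 357.4 in matUPD18 and 786.0 in patUPD18, 2.20-fold higher in patUPD18. By brightest probe sets these were the only ones past 2-fold, 1 of 26 in each direction. Over all measurable genes the shares past 2-fold were 2.70% towards matUPD18 and 1.78% towards patUPD18. A further measurable probe set of Cxcl1 gave a log2 ratio of -1.39, past 2-fold, where its brightest gave -0.30. Egr2, the relative of Egr1 that patterns the hindbrain, read 951.5 in matUPD18 and 493.0 in patUPD18, and a further measurable probe set of it gave 0.46 on the log2 scale, the same direction. Like Egr1 it read higher in matUPD18, by 1.93-fold. Maff, a small Maf factor, read 134.1 in matUPD18 and 239.3 in patUPD18, 1.78-fold higher in patUPD18 by the deposited values, and reached the limit on that array only. The neuronal activity genes Arc and Npas4 were far below the floor on both arrays, at 15.8 and 4.25 in matUPD18 and, in the same order, 17.1 and 5.03 in patUPD18.

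The partners with which Fos and Jun proteins form complexes stayed near the rest of the genes as a list. Of 13 measurable AP-1 and ATF partner genes, 4 read higher in matUPD18 and 9 in patUPD18 by the deposited values, where 53.9% of all measurable genes read higher in patUPD18. The median log2 ratio was -0.12 (-0.07 relative to all measurable genes), with 8 of 13 below the median of all genes, and 8 read higher in matUPD18 after scaling to the controls. Jdp2, Maff and Batf3 reached the limit on the patUPD18 array only and Maf on the matUPD18 array only, so the filter favoured the direction each of them showed. Jund, the constitutive member of the Jun family, read 776.9 in matUPD18 and 1203 in patUPD18 (log2 ratio -0.63), close to the ratio of Jun. Fosl2, the Fos relative also called Fra-2, read 205.5 in matUPD18 and 307.2 in patUPD18 (log2 ratio -0.58). Jund and Fosl2 were picked after their values were seen. Fosl1, another Fos relative, read 127.4 in matUPD18 and 46.1 in patUPD18, the other direction, and was not measurable. The AP-1 repressor gene Jdp2 read 155.5 in matUPD18 and 290.0 in patUPD18 (log2 ratio -0.90). Maf, a large Maf factor, read 344.8 in matUPD18 and 85.6 in patUPD18, 4.03-fold higher in matUPD18. A further measurable probe set of Maf gave only 0.04 on the log2 scale. It was the 1 of 13 at least 2-fold apart. Atf2, a partner of Jun that the stress kinases activate, read 4387 in matUPD18 and 3287 in patUPD18 (log2 ratio 0.42).

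The heat shock genes, some of which like immediate early genes respond to handling, read lower in matUPD18 by their brightest probe sets under the deposited scaling. All 14 measurable ones did, with a median log2 ratio of -0.37, where 53.9% of all measurable genes read higher in patUPD18. Of the 14, however, 4 read higher in matUPD18 after quantile, 3 after loess and 10 after control scaling. Further measurable probe sets did not all share the direction of the brightest. It was shared by 0 of 2 for Hspa5, 1 of 2 each for Dnaja1 and Hspa4l, 3 of 4 for Hsp90aa1 and all those of the other listed genes. Hspa1b, the inducible HSP70, read 618.5 in matUPD18 and 7529 in patUPD18, 12.2-fold higher in patUPD18. Hspa1a, a near-identical copy whose transcripts its probe set may not tell apart, was at least 11.5-fold higher in patUPD18. By brightest probe sets, Hspa1b and Hspa1a were the 2 of 14 past 2-fold, both towards patUPD18. Of all measurable genes, 1.78% passed 2-fold in that direction. The 4 further measurable probe sets of Hsp90aa1 ran from a log2 ratio of -1.03, past 2-fold, to 0.06. Hspa1a and Hspb8 reached the limit on the patUPD18 array only, so their selection favoured that direction. On the same arrays Ier3 (2.38-fold), Jun (1.47-fold) and Fos (1.25-fold) read in the direction of the heat shock genes, higher in patUPD18 by the deposited values. Egr1, Ier2 and Dusp1 read higher in matUPD18, and Atf3 was almost equal. Whether the list medians differ was not tested, and neither was any part of handling in the values of either list.

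**Figure D4:**
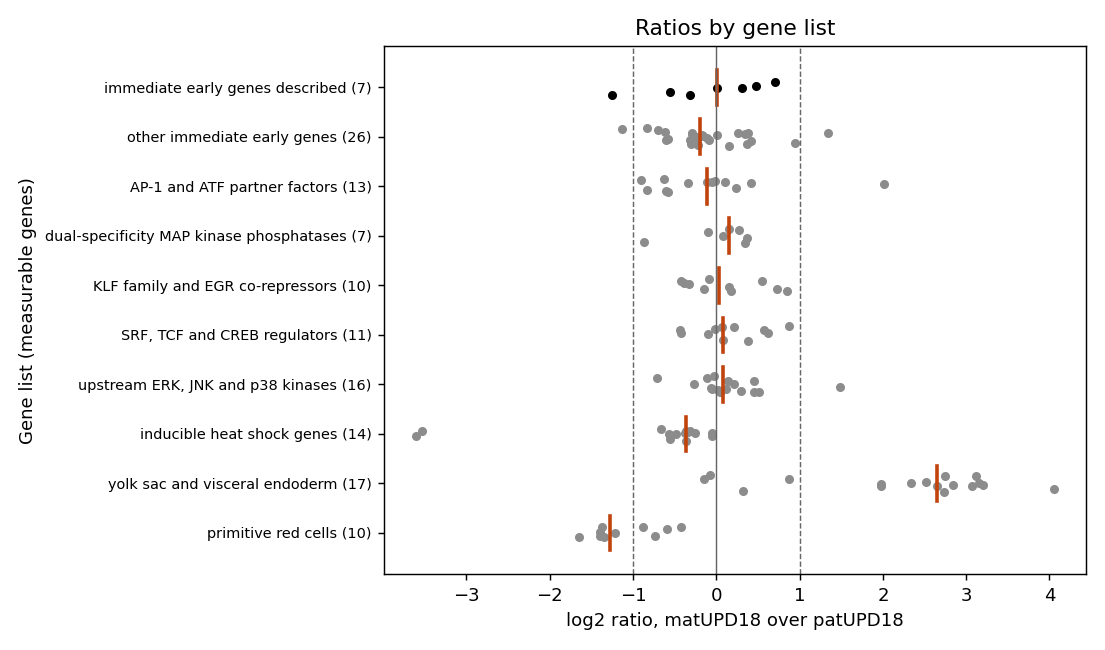
Log2 ratio of matUPD18 over patUPD18 of each measurable gene (points) by list, with the number of genes in brackets and the median as a vertical bar, under the deposited scaling; dashed lines mark 2-fold. The immediate early genes described lie on both sides of 0 (median 0.01), the heat shock genes lie below it (median -0.37, some above 0 under other scalings), the yolk sac markers reach 4.05 and the 10 red cell markers all lie below 0 (1 above 0 after control scaling).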

How the data were processed

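The deposited table holds 1 MAS5 signal intensity per probe set and array (45101 probe sets, 2 arrays), made by the authors with MAS5 and GCOS per the submitters' processing notes; their versions are not stated in the labels, and no detection calls were used. RNA was amplified with a RiboAmp kit and labelled with biotin, per the labels' protocols. Precision is limited by having 1 array of each genotype.

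Probe sets with exactly 1 symbol (34945 without control probe sets) were named through Entrez identifiers and the RefSeq table of GRCm38.p6 (34741 matched). Each gene was represented by its brightest probe set (mean of both arrays). Signals under an array's 40th percentile were raised to it, and log2 ratios are matUPD18 over patUPD18. Genes of like signal are 20 equal groups by mean signal. The named genes are all members and, of each other list, up to 2 per direction with the largest ratios; Jund, Fosl2, Arc, Npas4, Srf, Dusp6 and Nab1 were chosen after their values were seen. The members and lists were chosen with earlier results of these data known. Alternatives were other scalings, floors, filters, probe set rules and fold thresholds. The code was tested on simulated data. Python 3.11.15, pandas 2.3.3, numpy 2.4.6 and statsmodels 0.14.6 were used.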

Additional observations from a re-analysis of the deposited data

How the results depend on the processing

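Of 75 values of single measurable members under the alternatives, 67 moved by less than the 0.44 spread between probe sets and 8 by more. Many of the 67 could not have moved. A lower floor or none changes nothing for signals above the 40th percentile, as all of these were. Filters do not change a ratio, and each of these members had 1 measurable probe set, so the probe set rules changed nothing. The 67 are therefore no measure of robustness. Of the 8, 7 came from scaling to the hybridisation controls and 1 from the floor at the 60th percentile, where Ier3 had a log2 ratio of -0.49 because its matUPD18 signal was raised to the floor. The members' median was 0.57 with control scaling. Members at least 2-fold higher in patUPD18 numbered 0 with control scaling, with that floor, with both signals required to reach the limit and at 3-fold. Those higher in matUPD18 numbered 2 with control scaling and 1 (Egr1) at 1.5-fold. Over all measurable genes, against 283 higher in matUPD18 and 187 in patUPD18, the counts were 1639 and 29 with control scaling, 157 and 66 with both signals at the limit, and 1045 and 916 at 1.5-fold. At 3-fold they were 48 and 28, and the floor at the 60th percentile left 78 higher in patUPD18. Leaving out a replicate was not possible with 1 array per genotype. No paired analysis was possible because each genotype has 1 array. Dim signals limit Fosb, Junb, Klf4, Fos and Ier3 most.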

Other observations

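The genes that carry signals to the immediate early genes stayed mostly within 2-fold under the deposited scaling; scaling to the hybridisation controls adds 0.57 to a typical log2 ratio. Of 16 measurable kinase genes of the ERK, JNK and p38 pathways, 10 read higher in matUPD18 and 6 in patUPD18 (median log2 ratio 0.08). Over all measurable genes the share higher in matUPD18 was 46.1%. Araf, a RAF kinase gene on the X chromosome, read 865.0 in matUPD18 and 310.2 in patUPD18, 2.79-fold higher in matUPD18, and 4 further measurable probe sets of it gave log2 ratios from 0.06 to 0.97, all in that direction. By brightest probe sets, Araf was the 1 of 16 past 2-fold. Some further measurable probe sets of Mapk14 and Map3k7 also passed it. The 2 of Mapk14 gave log2 ratios of -0.12 and 2.30, beside -0.03 for its brightest. The 4 of Map3k7 ran from 0.01 to 1.10, beside 0.04 for its brightest. Map2k3, which activates p38, read 287.3 in matUPD18 and 472.6 in patUPD18, 1.65-fold higher in patUPD18. Among 11 measurable genes of SRF, the ternary complex factors and CREB, 7 read higher in matUPD18. By their brightest probe sets 0 passed 2-fold in either direction. Srf itself read 1295 in matUPD18 and 1391 in patUPD18. The acetyltransferase gene Ep300, a CREB coactivator, was 1.83-fold higher in matUPD18. Its relative Crebbp was 1.54-fold higher, though 1 of 2 other Crebbp probe sets had the opposite direction. In the other direction, the log2 ratio was -0.42 for Crem, on chromosome 18, and -0.44 for Crtc3. A further measurable probe set of Crtc3 gave 1.37, the opposite direction and past 2-fold.

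By their brightest probe sets, the measurable relatives of Dusp1 and Klf4 were also within 2-fold. Of 7 measurable dual-specificity phosphatase genes, 5 read higher in matUPD18 and 2 in patUPD18, where 46.1% of all measurable genes read higher in matUPD18. Dusp6, the ERK phosphatase that reports FGF signalling in the embryo, read 1247 in matUPD18 and 1030 in patUPD18. Dusp10, which acts on JNK and p38, read 157.3 in matUPD18 and 287.8 in patUPD18. It reached the limit on the patUPD18 array only, so its selection favoured that direction. Of 10 measurable genes of the KLF family and the EGR co-repressors, 5 read higher on each array. Klf12 was 1.80-fold higher in matUPD18, at 238.0 against 132.3 in patUPD18. It reached the limit on the matUPD18 array only, so its selection favoured that direction. Its 2 further measurable probe sets gave log2 ratios of 0.99 and 1.28, the second past 2-fold. They are no brighter than the first, so the same limit holds for their direction. Nab1, whose protein binds EGR proteins and represses them, read 1947 in matUPD18 and 1336 in patUPD18.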
